A study of Danio rerio with 9 samples.

Results

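Of the 43117 pairs of 10 kb bins called as interacting in zebrafish caudal fins at 0, 1 or 4 days post amputation (dpa), 1198 were called in identical bins at all 3 times, spanned at most 200 kb and held at least 6 times the expected contact count each time. These strong contacts were 13.6% of the 8795 pairs of up to 200 kb called in the same bins in all 3 lists, and 11.2% of the 10726 such pairs of any span. They were chosen by the ratio of the observed count to the expected count (O/E) in the 3 lists, so their O/E levels are given as a description, with no test. They were called throughout, but their level was no more constant than that of other shared pairs.

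HiCAR captures contacts of open chromatin: Tn5 transposase places an adaptor in accessible DNA of cross-linked nuclei, and ligation joins it to DNA lying close in space. The fins came from adult wild type fish of the outbred Ekkwill strain, 6 to 8 months old, cut at 50% of their length. There were 3 groups of 3 pools, each pool of 10 fins: uninjured fins at 0 dpa, and regenerating fins at 1 and at 4 dpa. Each time point has 1 deposited list and no values per pool, so no test across replicates was possible and no interval here covers the spread between pools.

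Contacts within a chromosome bring promoters, enhancers and structural sites together. Loops in vertebrate genomes are commonly held by CTCF and cohesin, form the corners of topological domains, and are often shared between cell types, whereas contacts between enhancers and promoters vary more. A cut fin first closes with a wound epidermis and then grows a blastema of dividing cells that rebuilds bone, skin, nerve and vessel. The pools mix these cells, so a contact made in fewer cells and one made less often per cell cannot be told apart. Coordinates are those of danRer11, and bins are given without genes or letters because no genome or gene models of that build were at hand.

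Counts at all called pairs summed to 909221, 562191 and 861126 at 0, 1 and 4 dpa, and those at the strong contacts to 60916, 53618 and 60670. Sequencing depth is unknown. A strong contact had 43 counts at 0 dpa by the median, with medians of 38 at 1 dpa and 45 at 4 dpa, and the lowest count in each list was 12. Exact Poisson intervals of a single contact, at the 95% level, cover counting error only.

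The O/E level of the strong contacts had a long upper tail. At 0 dpa it ran from 6.01 to 155 with a median of 10.0, at 1 dpa from 6.02 to 143 with a median of 9.03, and at 4 dpa from 6.01 to 98.6 with a median of 8.70. In the other 7597 pairs of up to 200 kb called in all lists, the medians were 4.21, 3.93 and 3.72. Both terms of the ratio contributed. At 0 dpa, the count of a strong contact was by the median 1.52 times, and its expected count 0.753 times, that of shared pairs of the same span. A count above and an expected count below that level were found together in 588 of the 1198, a count above it alone in 337 and an expected count below it alone in 271.

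**Figure D1:**
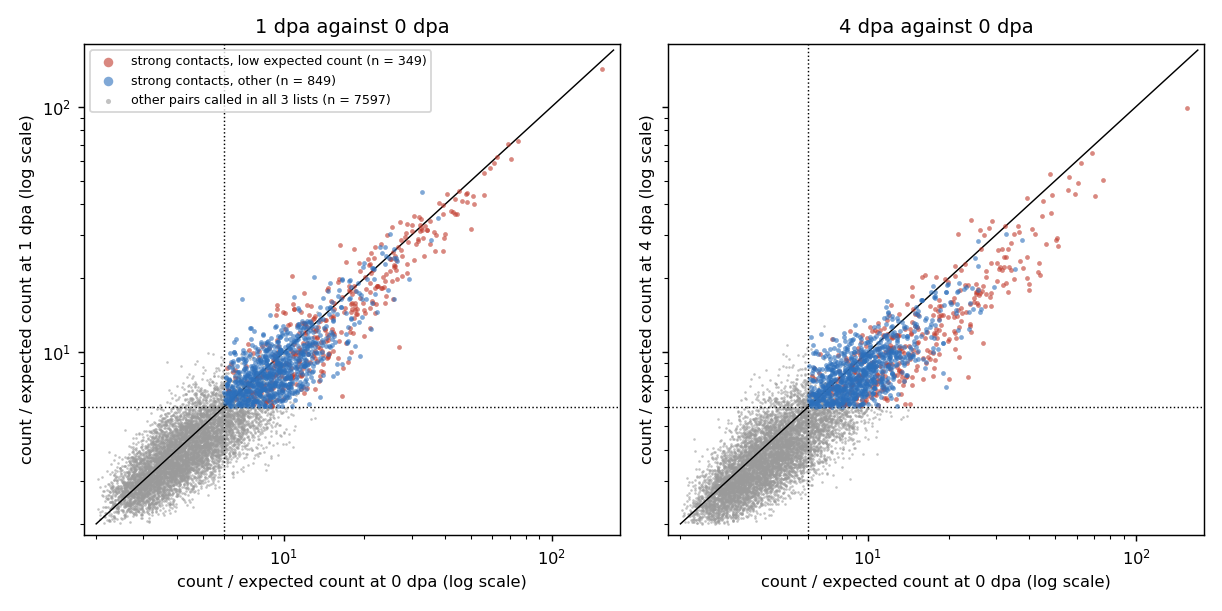
O/E (count over expected count, log scales) of the 8795 pairs of up to 200 kb called in all 3 lists, at 1 dpa (left) and 4 dpa (right) against 0 dpa. Each point is 1 bin pair. Red and blue points are the 1198 strong contacts, split by an expected count under 0.5 times the level of their span at 0 dpa. Grey points are the other 7597 pairs, the dotted lines mark an O/E of 6 and the solid line marks equality. At 4 dpa most strong contacts lie below equality, the red ones most.

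The limit of 6 cuts through a continuous range. Just inside it lay chr12:6060001-6070000 with chr12:6110001-6120000, with an O/E of 6.40, 6.53 and 6.01 at 0, 1 and 4 dpa. So did chr16:29580001-29590000 with chr16:29630001-29640000, with 7.36, 7.48 and 6.01. Just outside it lay chr7:3650001-3660000 with chr7:3680001-3690000, at 6.51, 8.50 and 6.00 (5.99959 at 4 dpa), and chr22:35890001-35900000 with chr22:36030001-36040000, at 7.14, 6.73 and 6.00 (5.99677). The value nearest the limit was that of 4 dpa in these, but not in all contacts at the limit. It was that of 0 dpa in chr4:12100001-12110000 with chr4:12260001-12270000, inside it at 6.01, 6.87 and 8.75. It was that of 1 dpa in chr7:5970001-5980000 with chr7:6060001-6070000, outside it at 9.97, 6.00 (5.99539) and 6.78. The span limit likewise cut a rising share: 45 of 124 shared pairs of 200 kb reached an O/E of 6 in all lists, and 51 of 123 pairs of 210 kb would have.

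Many contacts that passed the limit of 6 in 1 list were below it or not called in another, whichever list came first. Of 2844 pairs of up to 200 kb with an O/E of at least 6 at 0 dpa, 1638 also passed that limit at 1 dpa, 836 were called there with a lower O/E and 370 were not called in the same bins. At 4 dpa the numbers were 1489, 1103 and 252. Losses also ran the other way. Of 2102 pairs strong at 1 dpa, 327 had an O/E under 6 at 0 dpa and 137 were not called there. Of 1996 strong at 4 dpa these were 326 and 181. A limit set in 1 list makes such losses likely in any other, and the 1 dpa list was the shortest. No share over all pairs of a list was taken beside these numbers. The 1198 contacts strong at all times were thus 42.1% of those strong at 0 dpa, 57.0% of the 2102 strong at 1 dpa and 60.02% of the 1996 strong at 4 dpa.

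The strongest contacts were named by their lowest O/E of the 3 lists, 1 from each group of neighbouring contacts. The first joined chr22:6600001-6610000 and chr22:6730001-6740000, 130 kb apart. It had 221, 208 and 147 counts at 0, 1 and 4 dpa, against expected counts of 1.43, 1.46 and 1.49. Its O/E was 155 (95% interval 135 to 176), 143 (124 to 163) and 98.6 (83.3 to 116). Other shared pairs of that span had a median count of 26 and a median expected count of 4.87 at 0 dpa, so both terms stood apart. The 4 dpa level of the chromosome 22 contact lay below those of 0 and 1 dpa, whose intervals overlapped, with a ratio of 0.638 (0.514 to 0.789) at 4 over 0 dpa. All shared pairs had a median ratio of 0.885 in that comparison, and divided by it this ratio was 0.720.

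The second, between chr7:2280001-2290000 and chr7:2420001-2430000, had 104, 101 and 100 counts and an O/E of 68.6, 70.6 and 65.0. The third, between chr16:54600001-54610000 and chr16:54760001-54770000, had 72, 73 and 75 counts and an O/E of 62.3, 62.6 and 58.7. These stayed level within counting error: the ratios at 4 over 0 dpa were 0.949 (0.714 to 1.26) and 0.943 (0.673 to 1.32). A contact between chr24:29830001-29840000 and chr24:30000001-30010000 had 54, 48 and 63 counts and an O/E of 47.9, 44.2 and 53.2, again with overlapping intervals.

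A contact between chr1:54770001-54780000 and chr1:54830001-54840000 had 105, 109 and 77 counts, with an O/E of 75.1, 72.4 and 50.3. A contact between chr4:4130001-4140000 and chr4:4220001-4230000 had 146, 141 and 117 counts, with an O/E of 70.3, 61.0 and 43.5. Both had a lower O/E at 4 dpa than at 0 dpa, at ratios of 0.669 (0.492 to 0.907) and 0.618 (0.481 to 0.794). Divided by the median ratio of all shared pairs, these were 0.756 and 0.698. Both contacts had no called neighbour in any list. The remaining pair of contacts, between chr2:59230001-59240000 and chr2:59350001-59360000 and between chr1:58230001-58240000 and chr1:58360001-58370000, had intervals at 4 over 0 dpa that held 1 (0.599 to 1.08 and 0.584 to 1.14). All 8 had expected counts of 1.09 to 2.69 in the lists, below the median of their span.

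**Figure D2:**
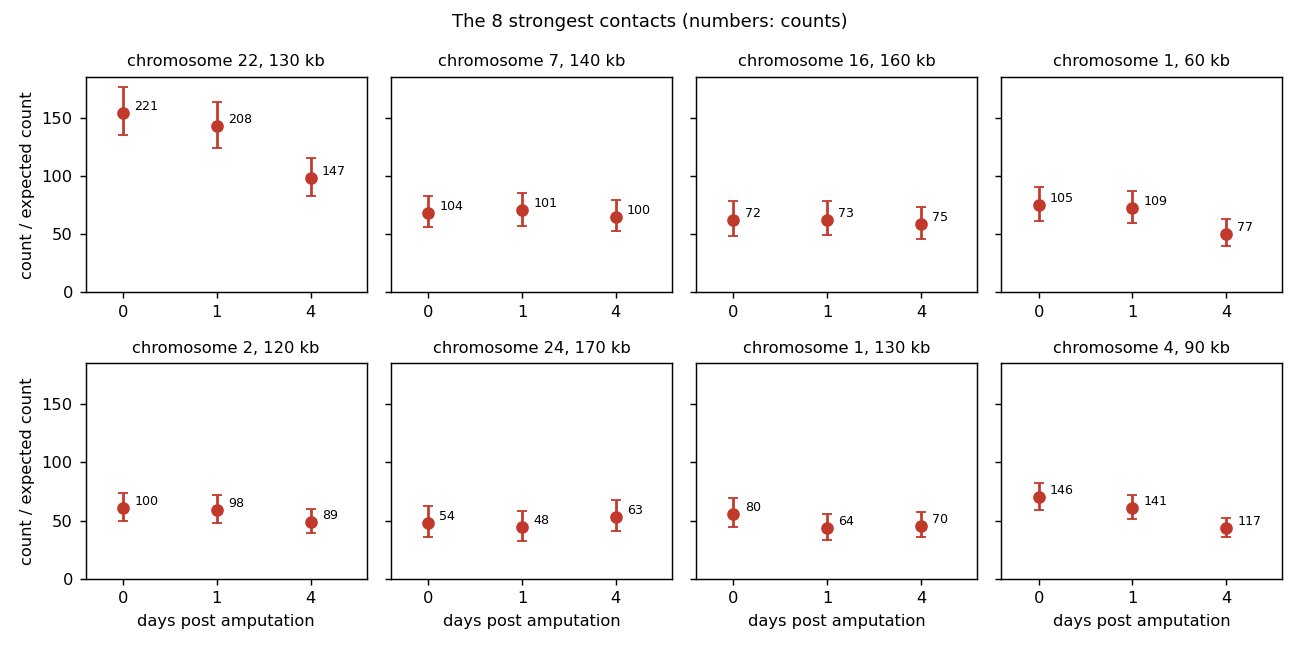
O/E (count over expected count, linear axis from 0) of the 8 strongest contacts at 0, 1 and 4 dpa, 1 panel each with its chromosome and span. Points are the deposited lists' values, numbers are counts and bars are exact 95% Poisson intervals for counting error only. The chromosome 22 contact falls to 98.6 at 4 dpa, against 155 at 0 dpa, while those of chromosomes 7 and 16 stay between 58.7 and 70.6.

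Strong contacts were also found among pairs with ordinary or high expected counts. The contact with the highest summed count, between chr5:9110001-9120000 and chr5:9130001-9140000, had 361, 357 and 321 counts at 0, 1 and 4 dpa against expected counts of 21.9, 18.1 and 23.4. Its O/E was 16.5, 19.7 and 13.7. The ratio was 1.19 (1.03 to 1.39) at 1 over 0 dpa and 0.832 (0.714 to 0.970) at 4 over 0 dpa. By O/E it was thus highest at 1 dpa and lowest at 4 dpa beyond counting error. Divided by the median ratios of all shared pairs, these were 1.28 and 0.940, so the lower level at 4 dpa was close to the shift of all pairs. The ratios of its counts alone were 0.989 and 0.889. A contact between chr1:55700001-55710000 and chr1:55720001-55730000 had the same order of levels, with 289, 245 and 231 counts and an O/E of 22.9, 26.9 and 18.0. A contact between chr3:10940001-10950000 and chr3:10990001-11000000 had 249, 196 and 214 counts and an O/E of 37.5, 35.2 and 28.8. Here the expected counts were 6.64, 5.57 and 7.44.

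Of the 45 strong contacts of 200 kb, the longest span allowed, the 4 described here had the highest lowest O/E, and others of that span are among the largest rises and falls given later. That between chr4:23320001-23330000 and chr4:23520001-23530000 had 48, 36 and 45 counts and an O/E of 27.6, 20.4 and 21.3. That between chr15:41320001-41330000 and chr15:41520001-41530000 had 25, 27 and 27 counts and an O/E of 19.3, 21.4 and 19.9. That between chr12:43890001-43900000 and chr12:44090001-44100000 had 62, 58 and 61 counts and an O/E of 17.7, 19.6 and 17.6. That between chr7:70340001-70350000 and chr7:70540001-70550000 had 36, 42 and 41 counts and an O/E of 19.7, 22.1 and 18.8. In these 4 the intervals of the times overlapped.

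By O/E, most strong contacts changed little, and those that changed were mostly lower later. The median ratio of O/E was 0.916 (95% order-statistic interval 0.901 to 0.932) at 1 over 0 dpa, 0.855 (0.843 to 0.871) at 4 over 0 dpa and 0.938 (0.924 to 0.953) at 4 over 1 dpa. The other pairs had medians of 0.938, 0.881 and 0.941. These intervals treat neighbouring pairs as independent and are likely too narrow. The highest O/E of the 3 was at 0 dpa in 651 strong contacts (54.3%), while 335 (28.0%) peaked at 1 dpa and 212 (17.7%) at 4 dpa. The other pairs had nearly the same shares, 51.6%, 29.7% and 18.7%. The lower O/E at 4 dpa went with a higher expected count, since by the median the strong contacts' observed count was 1.02 times and their expected count 1.18 times that of 0 dpa.

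At 4 over 0 dpa, 189 strong contacts (15.8%) were at least 1.5-fold lower, where 12.1% of all 8795 pairs were, and 9 (0.751%) at least 1.5-fold higher, where 1.39% were. At 1 over 0 dpa, 83 (6.93%) were lower, against a background of 7.09%, and 18 higher, against 1.46%. At 4 over 1 dpa, 95 (7.93%) were lower, against 5.92%, and 26 (2.17%) higher, against 2.16%. Strong contacts were thus close to the background at 1 dpa and somewhat more often lower at 4 dpa. A contact near the limit of 6 could not be far lower at a later time and stay a member, which bounds these falls. A pair with an O/E under 6 at the earlier time was no member however high it was later, which bounds the rises as well.

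The split between higher and lower moved with the scaling. Centred on the median ratio of all shared pairs, 35 strong contacts were at least 1.5-fold higher and 84 lower at 4 over 0 dpa, beside 3.97% and 4.67% of all pairs. Counts were also scaled by their total over all shared pairs, not over the whole lists, and used instead of O/E. By these scaled counts the numbers were 51 and 73, beside 5.72% and 4.26%. At 1 over 0 dpa they were 32 and 39 when centred, beside 3.14% and 4.03%, and 41 and 40 by scaled counts, beside 4.09% and 3.84%. At 4 over 1 dpa they were 44 and 66 when centred, beside 3.42% and 3.81%, and 45 and 88 by scaled counts, beside 4.43% and 3.79%. The share of strong contacts lower at 4 dpa lay above that of all pairs under each of these scalings, in both comparisons.

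By the largest over the smallest O/E of the 3 times, strong contacts were not steadier than other shared pairs. The median of this spread was 1.33 (1.32 to 1.35) in strong contacts and 1.30 (1.30 to 1.31) in the other pairs. It was below 5/4 in 438 strong contacts (36.6%), where 38.6% of all pairs were, and at least 2 in 25 (2.09%), where 1.68% were. Counting error alone would give an SD of the log2 ratio of 0.33 at 4 over 0 dpa for these counts. The observed SD was 0.35, and at 1 over 0 dpa it was 0.31 where counting error gives 0.34. Scatter about the median was therefore close to the size of counting error, and the calling limits trim it.

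Among the steadiest contacts with at least 50 counts in each list, that between chr13:30570001-30580000 and chr13:30640001-30650000 had 136, 124 and 161 counts and an O/E of 11.1, 10.98 and 10.99. That between chr22:18560001-18570000 and chr22:18760001-18770000 had 78, 69 and 78 counts and an O/E of 13.5, 13.2 and 13.2. Both lay in broad clusters, of 15 and 25 called pairs at 0 dpa. Their largest values exceeded the smallest by less than their own counting error.

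The contact with the largest fall at 4 over 0 dpa, chr5:28810001-28820000 with chr5:28840001-28850000, had an O/E of 23.6, 20.3 and 7.89, a ratio of 0.335 (0.215 to 0.512), and its counts of 72, 63 and 33 moved the same way. Next came chr12:2200001-2210000 with chr12:2400001-2410000, with 40, 32 and 16 counts, an O/E of 19.6, 16.5 and 7.19 and a ratio of 0.366 (0.191 to 0.668). Both kept most of their level at 1 dpa. A contact between chr2:36280001-36290000 and chr2:36380001-36390000 had 39, 16 and 17 counts and an O/E of 26.8, 10.5 and 10.9. It was already lower at 1 dpa, at a ratio of 0.393 (0.205 to 0.719), and was lower at 4 over 0 dpa to the same extent, at 0.405 (0.215 to 0.733). A contact between chr3:42430001-42440000 and chr3:42520001-42530000 had 48, 21 and 44 counts and an O/E of 13.7, 6.60 and 9.54, so its count at 1 dpa alone was low. Contacts picked as the most changed of 1198 will tend to look more changed than they are, and the intervals make no allowance for this.

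By O/E without centring, rises were smaller and fewer. By scaled counts at 1 over 0 dpa they were not fewer, with 41 contacts at least 1.5-fold higher and 40 lower. The largest rise of O/E at 4 over 0 dpa was between chr20:47550001-47560000 and chr20:47700001-47710000. It had 18, 23 and 41 counts, an O/E of 6.13, 7.39 and 11.5 and a ratio of 1.88 (1.06 to 3.47). The contact between chr24:7820001-7830000 and chr24:7990001-8000000 had 23, 22 and 46 counts, an O/E of 6.25, 6.60 and 10.7 and a ratio of 1.71 (1.01 to 2.95). Both were near the limit of 6 at 0 dpa. Other large rises in that comparison had intervals that held 1. The ratio was 1.77 (0.988 to 3.28) for chr25:10640001-10650000 with chr25:10780001-10790000. It was 1.58 (0.924 to 2.80) for chr16:38950001-38960000 with chr16:39130001-39140000. The largest at 1 over 0 dpa, between chr12:43720001-43730000 and chr12:43920001-43930000, had 15, 32 and 19 counts and an O/E of 6.98, 16.5 and 8.54, a ratio of 2.37 (1.246 to 4.71). It was high at 1 dpa alone. A contact between chr11:40200001-40210000 and chr11:40300001-40310000 had 28, 46 and 39 counts and an O/E of 16.3, 27.4 and 20.5, a ratio of 1.68 (1.03 to 2.79) at 1 over 0 dpa. Larger ratios in that comparison had intervals that held 1. These were 1.90 (0.906 to 4.18) for chr25:10930001-10940000 with chr25:10960001-10970000, and 1.71 (0.858 to 3.53) for chr8:52260001-52270000 with chr8:52450001-52460000.

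Strong contacts had longer spans than the other shared pairs. Their median span was 110 kb (110 to 120), against 60 kb (60 to 60) for the other pairs. Of the shared pairs of 20 kb, 93 of 1454 (6.40%) were strong, and of those of 160 to 200 kb, 290 of 903 (32.1%). The share was higher in each longer class. Expected counts are lower at longer spans, and no list holds a pair under 12 counts. The lowest O/E a called pair can have thus tends to be higher at long spans, so span is not independent of the O/E limit. The part of this in the difference was not tested.

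Short strong contacts were lower at 4 dpa than short pairs in general. At 20 kb the median ratio of O/E at 4 over 0 dpa was 0.735 (0.682 to 0.754) in 93 strong contacts and 0.860 (0.848 to 0.872) in 1361 other pairs. At 30 to 50 kb it was 0.793 (0.746 to 0.827) in strong contacts and 0.861 (0.852 to 0.873) in others. At 160 to 200 kb it was 0.930 (0.887 to 0.950) and 0.921 (0.895 to 0.944), with overlapping intervals. Up to 50 kb, 80 of 266 strong contacts (30.1%) were at least 1.5-fold lower at 4 over 0 dpa and none were higher, against 398 of 3414 other pairs (11.7%) lower. Their observed count was by the median 0.959 times that of 0 dpa, where other pairs of up to 50 kb had 1.07 times. Their expected count was 1.28 times as high, where the others had 1.24 times. The difference thus lay mostly in the observed counts. The sets also differed in make-up. An expected count under 0.5 times the median of their span at 0 dpa was found in 182 of the 266 strong contacts and 263 of the 3414 others. Of these, 37.4% and 27.4% were at least 1.5-fold lower at 4 over 0 dpa, and of the rest 14.3% and 10.3%. The contrast was thus smaller within each class.

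**Figure D3:**
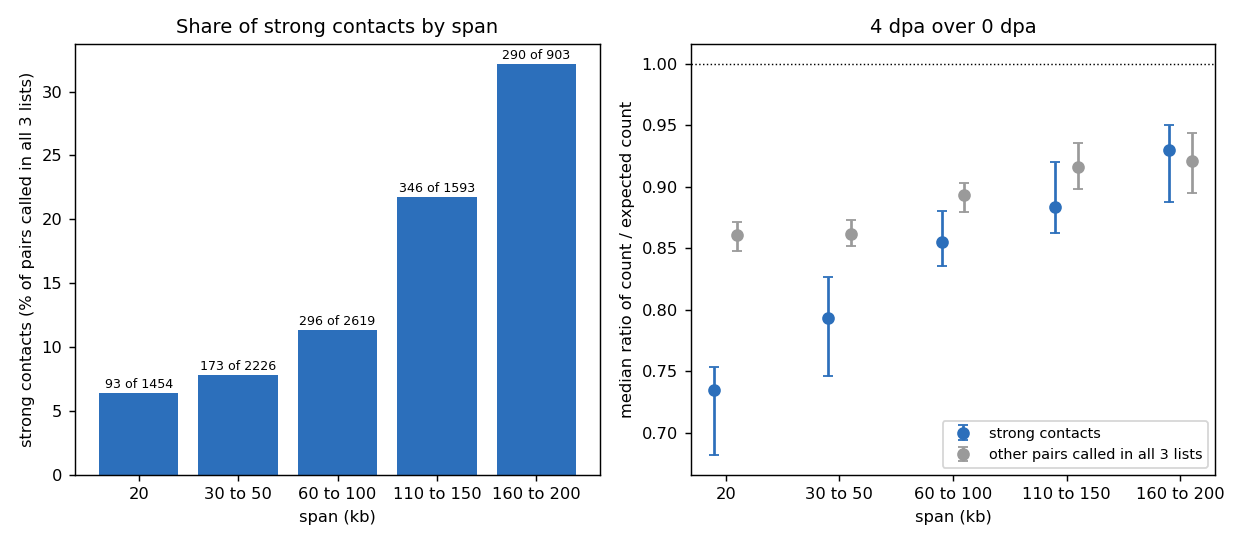
Left, the share (%) of the pairs called in all 3 lists that were strong contacts, by span in kb, with their numbers above the bars. Right, the median ratio of O/E at 4 over 0 dpa by span, for strong contacts and for the other pairs called in all lists, with 95% order-statistic intervals. Strong contacts make up 6.40% at 20 kb and 32.1% at 160 to 200 kb, and their ratio lies below that of the other pairs up to 50 kb but not at 160 to 200 kb.

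The falls were also set beside the level at 1 dpa. That level does not enter the ratio of 4 over 0 dpa, but the rule that chose the contacts used it. Up to 50 kb, the median ratio was 0.851 (0.805 to 0.900) in 67 strong contacts with an O/E of 6 to 8 at 1 dpa, 0.763 (0.735 to 0.819) in 107 with 8 to 12, and 0.689 (0.666 to 0.745) in 92 with at least 12. Over 50 kb these medians were 0.927, 0.889 and 0.811, in 358, 362 and 212 contacts. The limit of 6 at 4 dpa trims falls in the weakest class most, so part of this order is fixed by the rule. Contacts of low expected count, described next, had both a higher O/E at 1 dpa and lower ratios, and these were not separated here.

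The strong contacts were divided by their expected count, in a split made after the values were seen. In 349 of them, on all 25 chromosomes, the expected count at 0 dpa was under 0.5 times the median of shared pairs of the same span. The other 849 had ordinary expected counts. The low-expected contacts were shorter, with a median span of 50 kb against 130 kb in the others. Their O/E was higher, with medians of 14.4, 12.9 and 11.1 at 0, 1 and 4 dpa, against 9.26, 8.37 and 8.23 in the others. O/E divides by the expected count, so the split itself favours a higher O/E in the low-expected contacts. Their counts were lower, with medians of 38, 34 and 37 against 45, 40 and 49.

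The ratio at 4 over 0 dpa was below 1 by the median in both parts, and lower in the low-expected contacts. Their median ratio at 4 over 0 dpa was 0.752 (0.730 to 0.790), against 0.886 (0.873 to 0.911) in the other strong contacts. In that comparison 112 of them (32.1%) were at least 1.5-fold lower, against 77 (9.07%) of the others, beside the 12.1% of all pairs. The order held within span classes. Up to 50 kb the medians were 0.720 (0.688 to 0.752) and 0.814 (0.788 to 0.854), and over 50 kb 0.812 (0.761 to 0.855) and 0.902 (0.880 to 0.928). Low expected counts were accompanied by lower ratios outside the strong contacts too: 312 other shared pairs with an equally low expected count had a median of 0.778 (0.751 to 0.811), and the remaining 7285 had 0.885 (0.879 to 0.891). The median of the 849 strong contacts of ordinary expected count was close to that of these 7285 pairs. The expected count at 0 dpa both defines the split and enters the ratio, so the 2 are not independent. By the median, the observed count at 4 dpa was 0.946 times that of 0 dpa in low-expected and 1.04 times in the other strong contacts. The expected count was 1.24 and 1.17 times as high. Expected counts are the authors' estimates, and their part in these ratios was not tested.

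Low-expected contacts also more often had no called neighbour. No list holds a pair under 12 counts, so a neighbour of equally low expected count would need a higher O/E to be called. The part of this in the shares below was not tested. At 0 dpa, 119 of 349 (34.1%) were singletons, called pairs with no called neighbour, against 83 of 849 (9.78%) of the other strong contacts. At 1 dpa these were 39.5% and 11.7%, and at 4 dpa 34.4% and 8.48%. This was not particular to strong contacts. Among the other shared pairs, 33.7%, 36.2% and 35.3% of those with a low expected count were singletons at 0, 1 and 4 dpa. Of the rest, 8.99%, 12.4% and 10.3% were. Among the strong contacts the size of the difference depended on span. Up to 50 kb, 54 of 182 low-expected contacts (29.7%) were singletons at 0 dpa, against 16 of 84 others (19.0%). Over 50 kb these were 65 of 167 (38.9%) and 67 of 765 (8.76%).

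Position differed as well. In the outer 2 Mb at either end of a chromosome, taken from base 1 and from the last called bin, lay 145 strong contacts (12.1%) and 351 of the other shared pairs (4.62%). Low-expected contacts had the larger share there, 68 of 349 (19.5%), against 77 of 849 (9.07%) of the other strong contacts. This was not particular to strong contacts. Of the other shared pairs, 49 of 312 with a low expected count (15.7%) lay there, against 302 of the remaining 7285 (4.15%). Among the strong contacts the order depended on span. Over 50 kb, 50 of the 167 low-expected contacts (29.9%) lay there, against 65 of 765 (8.50%) of the other strong contacts. Up to 50 kb the order was the opposite, with 18 of 182 (9.89%) against 12 of 84 (14.3%).

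**Figure D4:**
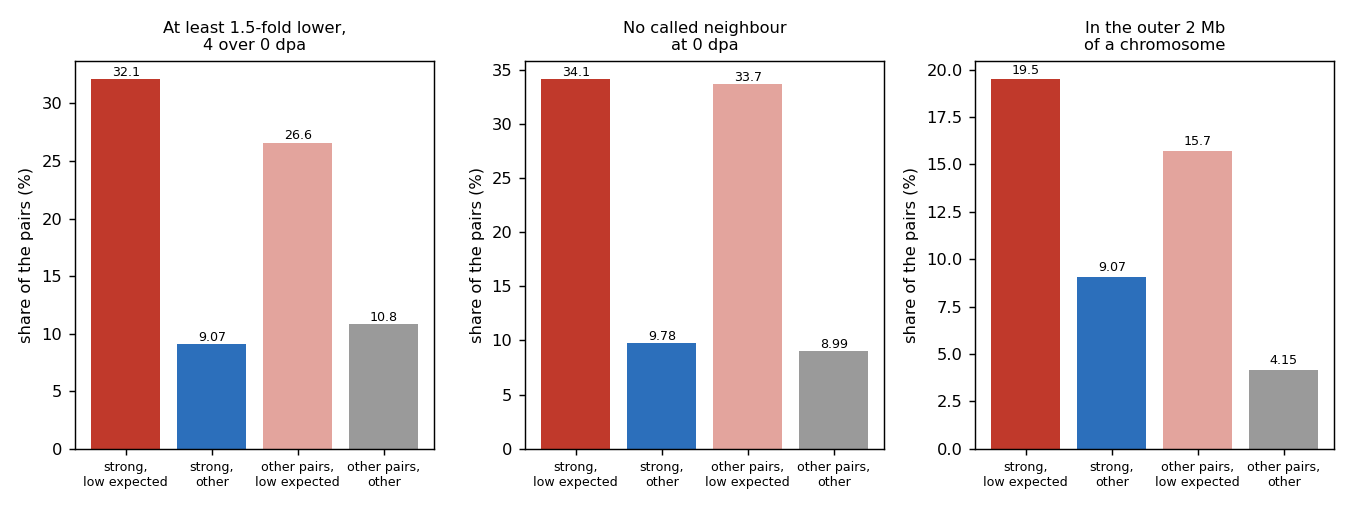
Share (%, axes from 0) of pairs that were at least 1.5-fold lower at 4 over 0 dpa (left), had no called neighbour at 0 dpa (middle) or lay in the outer 2 Mb of a chromosome (right). Bars are strong contacts of low expected count (n = 349), other strong contacts (n = 849), and the other pairs called in all lists with a low (n = 312) or ordinary (n = 7285) expected count. Low-expected bars are higher in all panels, with 32.1%, 34.1% and 19.5% in the strong contacts.

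The neighbourhood of a contact showed the same division. For spans of at least 100 kb, a called pair 1 bin inward at 1 anchor was found at 61.9% of positions around strong contacts of ordinary expected count at 0 dpa, and 1 bin outward at 51.4%. At 3 bins these were 21.1% inward and 7.83% outward, so called pairs trailed inside the contact more than outside it. In other shared pairs the shares at 3 bins were 20.6% inward and 12.9% outward. Around the 100 low-expected contacts of that span, 14.5% of inward and 19.5% of outward positions at 1 bin held a called pair, and 1.5% and 0.5% at 3 bins. Shifting both anchors 2 bins the same way, which keeps the span, found a called pair at 7.5% of positions around low-expected contacts, 1.48% around the other strong contacts and 4.91% around other shared pairs. At 1 and 4 dpa these same-way shares were 7% and 7% for low-expected contacts and 1.24% and 2.88% for the other strong contacts. They rest on 14 or 15 called positions of 200. The lowest count of 12 bears on called pairs around low-expected contacts here too, and its part was not tested.

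**Figure D5:**
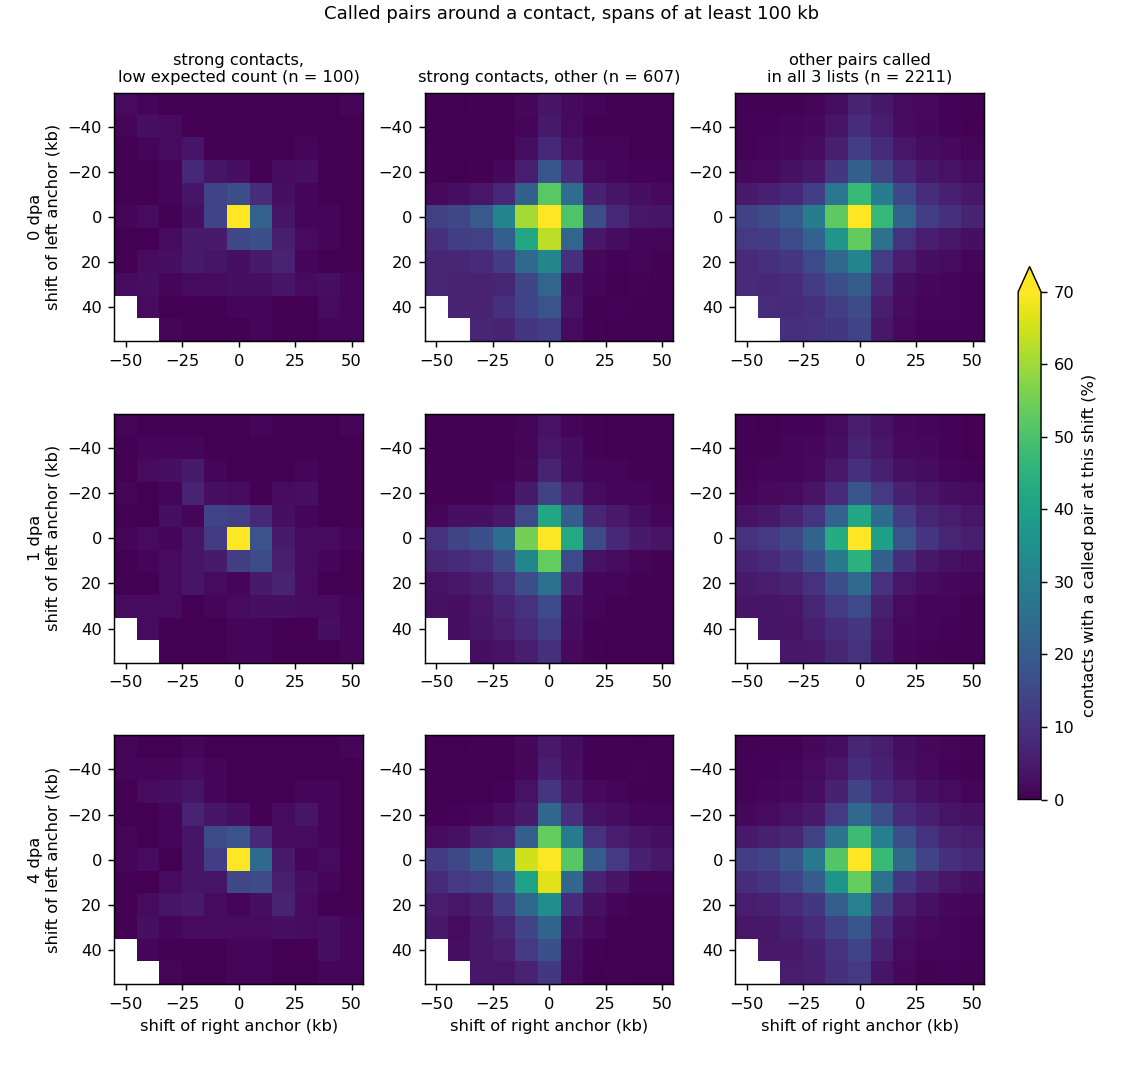
Share (%) of contacts with a called pair when the left anchor (rows of a panel, kb) and the right anchor (columns, kb) are shifted, at 0, 1 and 4 dpa, for spans of at least 100 kb. The columns of panels are strong contacts of low expected count (n = 100), other strong contacts (n = 607) and other pairs called in all lists (n = 2211). White cells are spans under 20 kb, which no list holds, and the centre is the contact itself. Around strong contacts of ordinary expected count, shares trail inward (down and left), while low-expected contacts show a faint line along the same-way diagonal.

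Strong contacts were more often the peak of their surroundings than other shared pairs. At 0 dpa, 845 (70.5%) were the summit of their cluster of called pairs, against 35.1% of the other shared pairs, and at 1 and 4 dpa 71.9% and 72.5% were, against 37.6% and 36.5%. A strong contact had the highest O/E of every called pair at both its anchors in 833 cases at 0 dpa (69.5%), 828 at 1 dpa (69.1%) and 839 at 4 dpa (70.03%), where the other pairs had 26.4%, 28.0% and 26.3%. O/E also chose the strong contacts, so neither share is independent of that choice. The FDR that the authors give each pair was at most 5.69e-05 in the strong contacts at 0 dpa and 9.50e-05 at 1 dpa. Other shared pairs reached 0.00999 and 0.00997 at these times. At 4 dpa the highest FDR of a strong contact was above both earlier values. The authors' model was not given, but the FDR likely rates the same counts against the same expected counts. A low FDR in strong contacts is then largely set by the choice, and no conclusion is drawn from it.

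The strong contacts used 2094 anchor bins, and most bins served 1 of them. In all, 1824 bins anchored 1 strong contact, 244 anchored 2 and 26 anchored 3 or more. Only 20 bins were the left anchor of one strong contact and the right anchor of another. Counting every called pair, their bins had a median of 2 partners in each list, with means of 3.14, 2.68 and 3.12 at 0, 1 and 4 dpa, against 2.82, 2.26 and 2.61 at bins of other shared pairs. Bins with at least 10 partners numbered 74 (3.53%), 40 (1.91%) and 61 (2.91%) in the same order, against 1.86%, 0.827% and 1.40% of the bins of other shared pairs. The bin chr11:35760001-35770000 had 15, 15 and 14 partners and anchored 4 strong contacts of 130 to 200 kb. The 1 dpa list was the shortest, with 18712 pairs, against 28421 at 0 dpa and 26988 at 4 dpa, and partner numbers move with list length.

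Other contacts at these bins were also called again. Leaving out pairs within 2 bins of a strong contact at both anchors, 1492 pairs of up to 200 kb in the 0 dpa list touched a bin of a strong contact. Of these, 76.7% had a called pair at 4 dpa with both anchors within 1 bin, against 70.4% of 18535 pairs elsewhere. At 1 dpa it was 72.9%, against 63.1%. For pairs of the 0 dpa list called again at 4 dpa, the difference lay in the short pairs. Up to 50 kb, 69.5% were called again, against 62.8% elsewhere, whereas at 60 to 100 kb it was 81.7% against 82.2% and at 110 to 200 kb 80.5% against 82.3%. At 1 dpa the shares were 67.8% against 56.9% up to 50 kb, 74.8% against 74.3% at 60 to 100 kb and 77.4% against 70.7% at 110 to 200 kb. Starting from the 1 dpa list the shares were closer, with 82.7% against 81.0% called at 4 dpa and 86.8% against 85.4% called at 0 dpa.

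With both anchors within 1 bin counted as neighbours, the 1198 strong contacts formed 944 groups, of which 757 held a single contact and 187 held 2 to 6. The largest group, of 6 contacts of 110 to 120 kb, covered chr21:20770001-20930000. Its counts summed to 225, 214 and 198 at 0, 1 and 4 dpa against summed expected counts of 15.6, 16.1 and 18.6, an O/E of 14.5, 13.3 and 10.6. Its left and right anchors moved along together, so its span hardly varied. A group of 4 contacts of 120 to 130 kb over chr1:58210001-58370000 ran the same way, with summed counts of 207, 171 and 165 and an O/E of 39.8, 33.0 and 31.1. A group of 5 over chr11:6440001-6640000 instead centred on 1 contact, between chr11:6450001-6460000 and chr11:6630001-6640000, with 152, 127 and 137 counts and an O/E of 25.7, 24.1 and 22.4. The group as a whole had an O/E of 12.4, 11.6 and 11.9. A group of 5 over chr22:8400001-8500000 had an O/E of 13.0, 11.3 and 8.64 and was lower at 4 than at 0 dpa in 4 of its 5 contacts. Of all 8795 pairs, 27.9% had a higher O/E at 4 than at 0 dpa, so a lower level in most contacts of a group is common.

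Linked by a shared anchor bin, the strong contacts made 908 networks, 700 of them of a single contact. The largest network joined 8 contacts of 20 to 100 kb over chr4:76660001-76780000, near the end of chromosome 4. Its counts summed to 455, 463 and 405, an O/E of 9.45, 10.42 and 7.56. All 8 contacts were lower at 4 dpa than at 0 and at 1 dpa, and 7 of 8 were higher at 1 than at 0 dpa. Of all 8795 pairs, 27.9% were higher at 4 than at 0 dpa, 38.6% at 4 than at 1 dpa and 38.0% at 1 than at 0 dpa. The bin chr4:76690001-76700000 of this network anchored 5 strong contacts, the most of any bin, with 7, 7 and 8 partners in all. The next network joined 7 contacts within chr1:55520001-55590000, with summed counts of 447, 346 and 364 and an O/E of 22.2, 18.0 and 13.0. All 7 were lower at 4 than at 0 dpa, at ratios of 0.388 to 0.873, and the strongest of them, between chr1:55530001-55540000 and chr1:55560001-55570000, had an O/E of 50.7, 43.1 and 29.3. A network of 5 over chr15:41320001-41540000 had summed counts of 171, 179 and 150 and an O/E of 20.8, 20.9 and 15.7. Contacts of 1 network share bins, so they are not independent.

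Closed triangles, in which 3 bins were joined by 3 strong contacts, were rare. There were 8, of which 4 lay on chromosome 1, 2 on chromosome 4 and 1 each on chromosomes 7 and 9. That of chromosome 9 joined the bins starting at 6390001, 6510001 and 6550001.

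Strong contacts were found on all 25 chromosomes. They were the largest share of shared pairs of up to 200 kb on chromosome 11, with 75 of 376 (19.9%), and on chromosome 22, with 74 of 400 (18.5%). The share was smallest on chromosome 21, with 20 of 210 (9.52%), and on chromosomes 6 and 14 it was 10.0%. Per Mb, chromosome 22 held most, 1.89, against 0.436 on chromosome 21. The median ratio of O/E at 4 over 0 dpa was below 1 on each chromosome, from 0.764 on chromosome 10 to 0.984 on chromosome 18. All shared pairs had a median of 0.885 in that comparison, so a median below 1 is not particular to strong contacts. Chromosomes 6, 13, 16, 18 and 20 had medians above 0.885. Chromosomes of a list share its pools and depth, so they are not replicates.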

How the data were processed

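Per the labels' protocols, HiCAR libraries were made from 9 pools of 10 fins, 3 per time point. The authors deposited 1 list of called bin pairs per time point; a list's name gives its time, as the titles of the samples do. Per the file headers, each row gives a contact count, an expected count (treated as a signal value), an FDR (a q-value) and a −log10 p of its cluster. BWA and danRer11 are named in the submitters' processing notes; the caller, background model and pooling were not given in the sources used here.

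Members were pairs in identical bins in all lists, of spans of at most 200 kb and with a count over expected ratio of at least 6 in each. Members, limits and alternatives were chosen with earlier results of these data known. Ratios between times have exact conditional binomial intervals and levels exact Poisson intervals (95%), which cover counting error only. Medians have order-statistic intervals (95%), which reflect the spread between bin pairs. They treat the pairs as independent and do not cover the spread between pools. A size limit of 1.5-fold stood in for a test. Bins took the place of genes in the naming rule: strongest, largest rises and falls, steadiest, longest, highest counts, contacts at the limit, most used anchors, largest groups and networks. Not all contacts the rule gave are printed. Gene assignment, planned for an annotation of danRer11, was not run. Scripts used pandas 2.3.3, numpy 2.4.6 and scipy 1.17.1 and were tested on simulated lists. Positions are 1-based.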

Additional observations from a re-analysis of the deposited data

How the results depend on the processing

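No paired analysis was possible because each list holds 1 value per time point, so no pool could be left out either. Of 155 alternative values of the main results, 95 moved by less than their interval (for counts, by under 1.5 times), 59 moved further and 1 reversed. The reversal was the median ratio at 1 over 0 dpa, which was 1.00 (1.00176) with raw counts scaled by their total over all shared pairs. The number of strong contacts was 1981 at an O/E of at least 5, 565 at 8 and 562 up to 100 kb. The median span was 60 kb up to 100 kb, 105 kb with 1 pair per group and 100 kb for summits at 0 dpa, and the median number of partners was 3 without singletons.

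The median ratio at 1 over 0 dpa was 0.898 for summits, 0.978 centred on all pairs and 0.975 centred by span. At 4 over 0 dpa it was 0.830 at an O/E of 8, 0.811 up to 100 kb, 0.835 for summits, 0.873 without singletons, 0.966 and 0.962 centred on all pairs and by span, and 0.980 with raw counts. At 4 over 1 dpa it was 0.912 at an O/E of 8, 0.891 up to 100 kb, 0.959 without singletons, 0.989 and 0.985 centred on all pairs and by span, and 0.986 with raw counts. The share at least 1.5-fold higher at 1 over 0 dpa was 0.712% up to 100 kb, 0.850% at a count of at least 20, 0.861% without singletons, 2.67% and 3.01% centred on all pairs and by span, and 3.42% with raw counts. The share lower was 3.26%, 3.92% and 3.34% in the last 3 settings. At 4 over 0 dpa the share higher was 0% at an O/E of 8, 0.178% up to 100 kb, 2.92% and 2.42% centred on all pairs and by span, and 4.26% with raw counts. The share lower was 20.2% at an O/E of 8, 20.8% up to 100 kb, 12.7% without singletons, 7.01% and 6.51% centred on all pairs and by span, and 6.09% with raw counts. At 4 over 1 dpa the share higher was 1.06% at an O/E of 8, 1.42% at a count of at least 20, 3.67% centred on all pairs and 3.76% with raw counts. The share lower was 10.97% at an O/E of 8, 10.1% up to 100 kb, 5.27% without singletons, and 5.51% and 5.34% centred on all pairs and by span. The cause of these moves was not tested.

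Alternatives for the split by expected count, for short contacts and for chromosome ends were chosen after seeing the data. With raw counts, the median ratio at 4 over 0 dpa was 0.911 in low-expected and 0.999 in the other strong contacts, the share at least 1.5-fold lower 12.03% and 3.65%, and the median up to 50 kb 0.924. In the outer 1 Mb lay 6.84% of strong contacts, against 3.12% of the other pairs. In the outer 5 Mb lay 23.5% of strong contacts. The share of the other pairs there is not given here, so that value shows no excess. Limits of 0.4 or 0.6, or the split at 4 dpa, moved none of these 4 values of the split beyond their intervals.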
